A study of Rattus norvegicus with 10 samples.

Results

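The CXC chemokines are small secreted proteins that direct the movement of leukocytes through G protein-coupled receptors, and Cx3cl1 (fractalkine) is a membrane-anchored relative of them that neurons make and that acts on Cx3cr1 of microglia. The 10 genes described here are 9 of these ligands, Cxcl1, Cxcl2, Cxcl9, Cxcl10, Cxcl11, Cxcl12, Cxcl13, Cxcl16 and Cx3cl1, together with Cxcr4, the receptor of Cxcl12. They were chosen by name, as every mRNA probe whose RefSeq accession belongs to a listed gene, which gave 12 probes of 10 genes among 13888 genes named by an mRNA probe of the array. All 12 probes passed the filter on low signals, that of Cxcl9 through the MT arrays alone.

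RNA of the lumbar spinal cord was compared between morphine-tolerant rats (MT group, rats 1 to 5) and rats given normal saline (NS group, rats 6 to 10), all of them male Sprague Dawley rats of 240 to 260 g. MT rats received 10 μg of morphine in 10 μl by intrathecal injection 2 times per day for 7 days, and NS rats received 10 μl of saline on the same schedule. Each rat gave 1 RNA sample and 1 one-colour array, so that n = 5 per group counts animals. The tissue was the whole lumbar enlargement, and in such bulk RNA fewer cells of a type and less RNA per cell cannot be told apart.

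Values are log2 fluorescence intensities after quantile normalization, which gives every array the same distribution, and they compare 1 probe between rats but not 1 probe with another. RNAs were tested with limma, with p-values adjusted over 20284 RNAs by the Benjamini-Hochberg method. A call needed an adjusted p below 0.05, and a more permissive call, named the study's criteria below, needed a linear fold above 1.5 and an unadjusted p below 0.05. The methods word this threshold as a log2 fold change and a legend as a linear fold, and the linear reading was taken.

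The arrays fell into 3 sets that share a scan time in the file headers and are called slides here. Slide 1 held MT rats 1, 3, 4 and 5, slide 2 held MT rat 2 with NS rats 6, 7 and 10, and slide 3 held NS rats 8 and 9, so that only slide 2 held both groups. Slide 3 was dimmer, with 58.6% and 63.8% of spots well above background against 77.4% to 83.9% on the other 8 arrays. All 5 astrocyte, 5 neuron and 6 oligodendrocyte marker genes measured passed the filter on low signals, as did 3 of 4 markers of dorsal root ganglion neurons. With slide as a fixed block no RNA passed the adjusted threshold with limma. An unadjusted p below 0.05 was found for 824 of the 20221 RNAs with a value on every array, a share below 0.05. Group and slide are separated only through the 4 arrays of slide 2.

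In rat the members lie in few places. On chromosome 14 of the GRCr8 build the annotation of RefSeq places Cxcl13 at chr14:13912858-13917920, Cxcl11 at chr14:15973728-15976503, Cxcl10 at chr14:15989066-15991263, Cxcl9 at chr14:16007166-16012077, Cxcl2 at chr14:17465210-17467255 and Cxcl1 at chr14:17477542-17479321. Cxcl12 lies on chromosome 4, Cxcl16 on chromosome 10, Cxcr4 on chromosome 13 and Cx3cl1 on chromosome 19. The array files name the transcript each probe stands for, but the position of the probe within it was not analysed here.

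Many chemokine genes are switched on by NF-κB, a transcription factor of inflammatory signalling, or through the interferon-stimulated response element (ISRE). The 250 bases before the start site of each member were searched on both strands for the NF-κB consensus and for the ISRE, taken as GAAA followed after any pair of bases by another GAAA, with overlapping matches counted. The NF-κB consensus was found in 4 of the 10 members, Cxcl1, Cxcl2, Cxcl10 and Cxcl11, and in 3.54% of 33469 promoters of the rat RefSeq table. The ISRE was found in 1 member, Cxcl10, and in 3.41% of those promoters. The sequences of these 4 members are shown with the matched bases in capitals, because the same 4 genes had the widest spread between rats, as described further on, and that of Cxcl13 follows because it was the member whose level differed between the groups. All are 5′ to 3′ on the strand of the gene, from RefSeq on GRCr8, at chr14:17479322-17479571 (minus strand) for Cxcl1, chr14:17467256-17467505 (minus) for Cxcl2, chr14:15988816-15989065 (plus) for Cxcl10, chr14:15973478-15973727 (plus) for Cxcl11 and chr14:13917921-13918170 (minus) for Cxcl13.
Cxcl1: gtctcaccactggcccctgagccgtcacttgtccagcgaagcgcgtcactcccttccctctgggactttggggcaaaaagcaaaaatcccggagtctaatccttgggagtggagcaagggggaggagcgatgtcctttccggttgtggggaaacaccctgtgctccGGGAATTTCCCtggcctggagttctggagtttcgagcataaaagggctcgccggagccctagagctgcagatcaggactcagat
Cxcl2: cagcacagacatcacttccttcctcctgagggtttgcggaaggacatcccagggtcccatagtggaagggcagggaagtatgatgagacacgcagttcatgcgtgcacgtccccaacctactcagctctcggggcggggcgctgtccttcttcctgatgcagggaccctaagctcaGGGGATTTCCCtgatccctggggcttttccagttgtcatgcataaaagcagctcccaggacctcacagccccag
Cxcl10: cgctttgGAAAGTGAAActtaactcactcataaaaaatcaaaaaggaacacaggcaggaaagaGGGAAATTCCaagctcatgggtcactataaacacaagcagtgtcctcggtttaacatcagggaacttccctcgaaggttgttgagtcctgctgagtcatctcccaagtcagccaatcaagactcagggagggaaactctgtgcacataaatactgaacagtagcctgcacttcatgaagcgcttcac
Cxcl11: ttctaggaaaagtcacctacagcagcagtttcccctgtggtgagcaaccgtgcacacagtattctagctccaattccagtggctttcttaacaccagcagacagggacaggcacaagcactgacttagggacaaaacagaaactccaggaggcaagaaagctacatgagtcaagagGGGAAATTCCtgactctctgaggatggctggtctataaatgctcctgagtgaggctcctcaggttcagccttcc
Cxcl13: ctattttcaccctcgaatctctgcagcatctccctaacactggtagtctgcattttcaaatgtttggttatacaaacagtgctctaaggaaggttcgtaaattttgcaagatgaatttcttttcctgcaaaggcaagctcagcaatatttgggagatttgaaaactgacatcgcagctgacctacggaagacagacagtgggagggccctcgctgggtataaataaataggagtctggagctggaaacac

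The NF-κB match of Cxcl1 begins 84 bases before the start site and is read on both strands, shifted by a base. That of Cxcl2 begins 74 bases before its start site and holds overlapping matches. In Cxcl11 the match also begins 74 bases before the start site, and it has the same letters as the match of Cxcl10, GGGAAATTCC, which begins 187 bases before the start site of that gene, downstream of its ISRE at 243 bases. The windows of the other 6 members, Cxcl13 among them, hold neither set of letters. The window of Cx3cl1, chr19:10242821-10243070 (minus strand), lies inside the annotated gene at chr19:10233326-10244856, so the bases before the outer end of that gene were not searched. The matches are of letters, and binding of any factor was not measured.

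Cxcl13, the ligand of Cxcr5 that guides B cells into lymphoid follicles and that has been studied in spinal cord pain models, was lower in the MT group. Its values were 14.78, 14.70, 14.52, 14.94 and 14.28 in MT rats 1 to 5 and 15.71, 15.37, 16.13, 16.01 and 15.65 in NS rats 6 to 10. The groups did not overlap, with all MT rats on the lower side, and the highest were NS rats 8 and 9, the pair on slide 3. The means were 14.64 ± 0.25 for MT and 15.77 ± 0.30 for NS (SD, n = 5 each), a log2 difference of -1.13 (SE 0.17, 95% interval -1.50 to -0.76), or 2.19-fold lower, with limma's adjusted p = 0.0425.

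An exact two-sided permutation test of Cxcl13 over the 10 rats gave p = 0.00794, the smallest value that 5 rats against 5 allow. This test exchanges rats freely across slides, although slides 1 and 3 each held a single group. It therefore cannot separate group from slide, and it uses the same values as the limma test. Cxcl13 was the only member called, 1 of 12 probes, where 0.197% of all RNAs tested were called, 0.0739% as higher and 0.123% as lower. It was also the only member past the study's criteria, which 2.74% of RNAs met. Groups that do not overlap were seen in 5.62% of the RNAs with a value on every array (3.3% with the MT group lower), and among the 12 probes in that of Cxcl13.

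On slide 2 alone, the Cxcl13 level of MT rat 2 (14.70) lay below those of NS rats 6, 7 and 10 (15.37 to 15.71), a log2 difference of -0.87 with 1 MT rat and no test. With slide as a fixed block the estimate was the same and limma's adjusted p was 0.945 (unadjusted p 0.00717), and with slide as a random block it was -1.04 with an adjusted p of 0.281. Without NS rats 8 and 9 the difference was -0.93 and limma's adjusted p 0.128. The call was also lost when any 1 of MT rats 1, 3, 4 and 5 or NS rats 6, 8 and 9 was left out, with an adjusted p of 0.0608 to 0.163. Over all 22 alternative settings the log2 difference ran from -1.23 to -0.87, the adjusted p was below 0.05 in 10 of them and ran from 0.0166 to 0.945, and the study's criteria were met in 22 of 22.

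**Figure D1:**
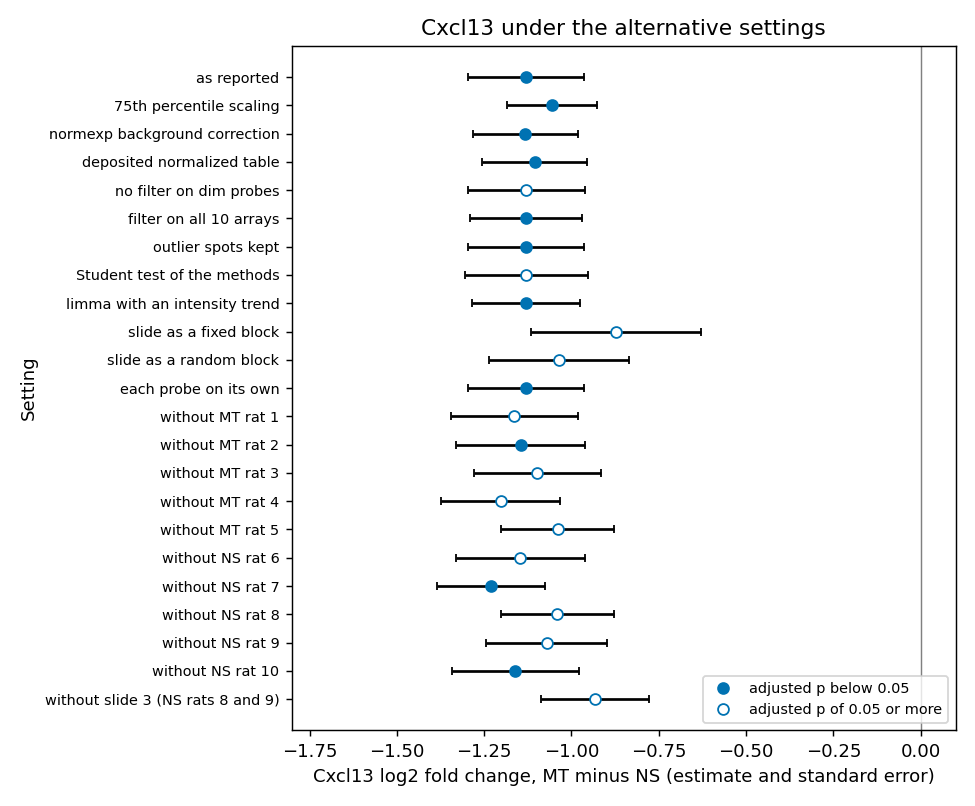
Log2 difference of Cxcl13 between the MT and NS groups (x axis, MT minus NS, points with standard errors) as reported and under 22 alternative settings (y axis). Filled points have an adjusted p below 0.05 and open points do not; every estimate lies between -1.23 and -0.87, and the smallest difference is that with slide as a fixed block.

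Before normalization, the background-subtracted intensity of Cxcl13 was 21083 to 40343 in the MT group and 32891 to 69262 in the NS group. These raw ranges overlap, since NS rat 9, on the dimmer slide 3, read 32891 and MT rat 4 read 40343. The separation of the groups is thus one of values made comparable between arrays. The log2 difference was -1.06 under scaling to the 75th percentile (limma's adjusted p = 0.0266), where the median of all RNAs was 0.07, and -1.10 in the table of normalized values that the authors deposited (adjusted p = 0.0294).

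The 3 named mRNAs whose levels ran most like that of Cxcl13 across the 10 rats were Cdkn2b, Nsun7 and Clec4a2, by the root mean square distance of values centred on each gene's own mean, over 12456 mRNAs. The distances were 0.22, 0.26 and 0.27 (log2). Cdkn2b encodes a cyclin-dependent kinase inhibitor and Clec4a2 a C-type lectin of myeloid cells. The log2 differences of Cdkn2b, Nsun7 and Clec4a2 were -1.07, -0.75 and -0.73, a direction that follows from the choice by likeness to Cxcl13. All 3 were highest in NS rats 8 and 9, the pair on slide 3, as Cxcl13 was. Cdkn2b was dim, at 3.78 to 5.88.

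Genes of the lymphoid circuit in which Cxcl13 takes part were listed as a group, with the lymphotoxins, their receptor and the Ccr7 axis. Of 6 genes tested, 0 passed the adjusted threshold or the study's criteria with limma, 1 had an unadjusted p below 0.05, as 16.4% of all RNAs did, and the median log2 difference was 0.11. That gene was Ccr7, the receptor that brings lymphocytes and dendritic cells to lymphoid tissue, at 0.38 (SE 0.14, adjusted p = 0.240). Its ligand Ccl19 differed by 0.26 (adjusted p = 0.459). Cxcr5, the receptor of Cxcl13, differed by 0.21 (SE 0.39, adjusted p = 0.809).

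Microglia markers are given beside Cxcl13. Of 10 markers tested, 8 had a lower mean after morphine, 1 (Gpr34) was called at an adjusted p below 0.05 and 2 (Gpr34 and Tmem119) met the study's criteria. They had a median log2 difference of -0.29 against -0.001 over all RNAs, of which 0.197% were called and 2.74% met the study's criteria. Without slide 3, and with slide as a fixed block, 0 were called and 1 met the criteria. The log2 of their summed intensity was 16.02 to 16.28 in the MT group and 16.25 to 16.66 in the NS group. Gpr34, a microglial receptor for a lysophospholipid, differed by -0.63 (adjusted p = 0.0414) and Tmem119, a membrane protein used to tell microglia from macrophages, by -1.24 (adjusted p = 0.0555). Markers of B and T cells had 4 genes tested and 1 past the study's criteria, Cd79b, at -0.89 (adjusted p = 0.259). Cd79b was dim, at 2.58 to 3.5 in MT rats and 3.29 to 5.09 in NS rats, with NS rats 8 and 9 on slide 3 highest. Of these markers 0 met the criteria without slide 3 or with scaling to the 75th percentile, and 1 did with slide as a fixed block. The part of these cell types in the Cxcl13 difference was not tested.

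Cxcl1 and Cxcl2 bind Cxcr2 and attract neutrophils. Cxcl1 read 11.32, 11.52, 10.88, 11.60 and 11.64 in MT rats 1 to 5 and 12.20, 10.43, 11.37, 9.59 and 6.63 in NS rats 6 to 10. The MT rats lay within a 1.69-fold range, whereas the NS rats spread over 47.5-fold, from NS rat 10 at the bottom to NS rat 6, the highest of all 10 rats. The group means were 11.39 ± 0.31 and 10.04 ± 2.15 (SD, n = 5 each), a log2 difference of 1.35 (SE 0.87, 95% interval -0.59 to 3.29) with limma's adjusted p = 0.463. The exact two-sided permutation test gave p = 0.198.

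The estimate for Cxcl1 rested on NS rat 10, without which it was 0.50. Without NS rat 6 it was 1.89 and met the study's criteria, at an unadjusted limma p of 0.0446 and an adjusted p of 0.281. On slide 2, which holds both the highest and the lowest NS rat, MT rat 2 stood 1.77 above the mean of the NS rats.

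Cxcl2 read 7.49, 7.44, 6.80, 7.97 and 6.18 in MT rats 1 to 5 and 8.30, 7.61, 8.25, 7.25 and 4.21 in NS rats 6 to 10. NS rat 10 was again the lowest of all rats and NS rat 6 again the highest. The means were 7.18 ± 0.69 and 7.12 ± 1.69 (SD, n = 5 each), with a log2 difference of 0.06 (SE 0.73, 95% interval -1.58 to 1.69) and limma's adjusted p = 0.976. The interval runs from 0.335-fold to 3.22-fold, so changes within that range, in either direction, were not excluded by these arrays. Without NS rat 10 the difference was -0.67, and with normexp background correction it was -0.11.

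**Figure D2:**
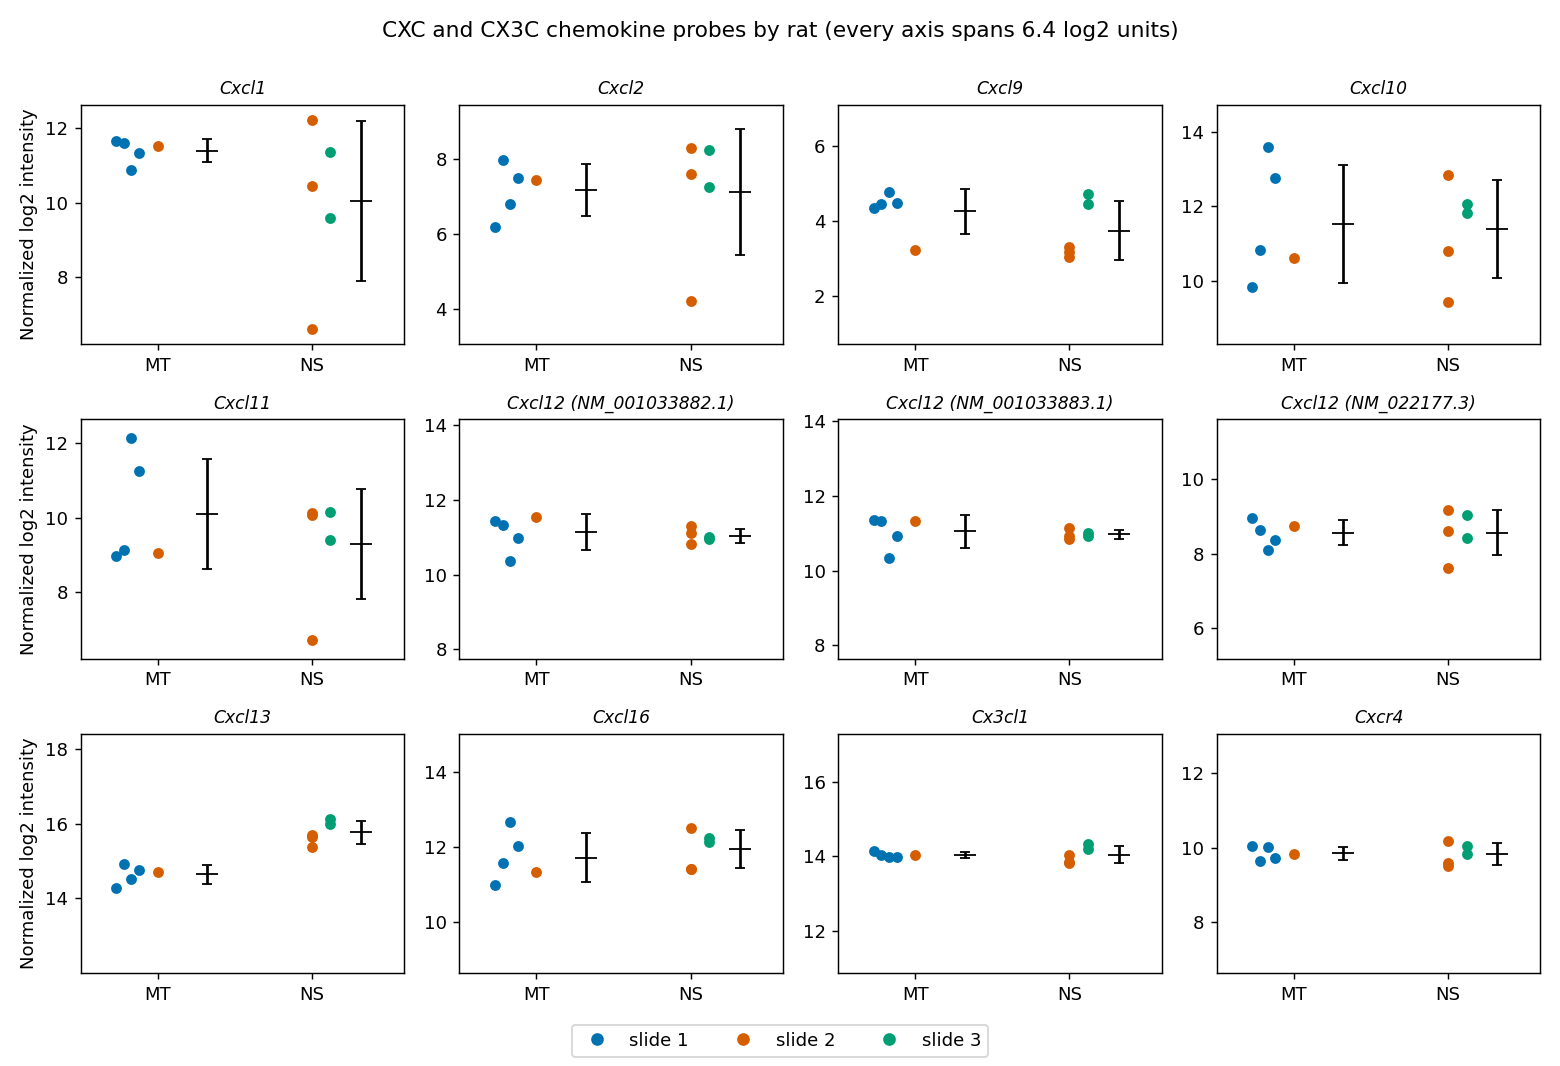
Normalized log2 intensity (y axis) of the 12 probes in each rat of the MT and NS groups, with points coloured by slide and the mean with its SD beside each group. Every axis spans the same 6.4 log2 units, and the groups are separate for Cxcl13. The lowest point is NS rat 10 for Cxcl1, Cxcl2, Cxcl10, Cxcl11, Cxcr4 and the Cxcl12 probe for NM_022177.3.

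The mRNAs nearest to Cxcl1 in their pattern were Ccl2, Esm1 and Ptgs2, at distances of 0.47, 0.52 and 0.54, and Cxcl2 stood in rank 16. Ccl2 is the chemokine that attracts monocytes, and Ptgs2 is the inducible cyclooxygenase. In NS rat 10 they read 7.91 (Ccl2), 2.89 (Esm1) and 3.22 (Ptgs2), in each case the lowest of the 10 rats.

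A list of 11 genes known to be induced through NF-κB held 10 with a higher and 1 with a lower mean in MT rats, and its median log2 difference was 0.58. None passed the adjusted threshold with limma. An unadjusted p below 0.05 was found for 5, beside 16.4% of all RNAs, and 3 met the study's criteria, beside 2.74%. These were Sele at 1.74 (adjusted p = 0.210), the endothelial adhesion molecule for leukocytes, Birc3 at 1.43 (adjusted p = 0.150), an inhibitor of apoptosis, and Bcl3 at 1.41 (adjusted p = 0.114), a partner of NF-κB. Vcam1, another adhesion molecule of endothelium, differed by 0.36 (adjusted p = 0.210). Nfkbia, the gene of the list with a lower mean, differed by -0.009 (SE 0.21). The mean of the list, centred per gene, ran from 0.14 to 0.66 across MT rats and from -1.66 to 0.40 across NS rats, with NS rat 10 lowest. Without NS rat 10, 9 of the 11 were higher, 3 met the study's criteria and the median was 0.51, and with slide as a fixed block 10 were higher, 1 met the criteria and the median was 0.92.

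Markers of the cells that Cxcl1 and Ccl2 attract are given beside these values. Among 5 neutrophil markers 3 had a higher and 2 a lower mean in MT rats, and 2 met the study's criteria, both higher, with a centred list mean between 0.18 and 0.41 for MT and between -0.45 and 0.01 for NS. Csf3r, the receptor for the growth factor of granulocytes, differed by 0.91 (SE 0.16, adjusted p = 0.0636) and S100a8, a calcium-binding protein abundant in neutrophils, by 1.44 (SE 0.35, adjusted p = 0.121), while Lcn2 differed by -0.24 and Ncf1 by -0.19. Among 5 markers of monocytes and macrophages 3 had a higher and 2 a lower mean. The criteria were met by 2, Cd14 at 1.1 (adjusted p = 0.0899) and Mrc1 at 0.63 (adjusted p = 0.0973). The 2 with a lower mean were Plac8, which differed by -0.34, and Ccr2, by -0.05. Of all RNAs, 2.74% met the study's criteria, 1.74% as higher. The part of these cells in the values of Cxcl1 and Cxcl2 was not tested.

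Cxcl9, Cxcl10 and Cxcl11 are induced by interferons and attract T cells through Cxcr3. Cxcl10 read 12.76, 10.62, 13.58, 10.83 and 9.85 in MT rats 1 to 5 and 10.82, 12.83, 12.08, 11.81 and 9.45 in NS rats 6 to 10. Both groups held high and low rats, with MT rats 3 and 1 and NS rat 7 at the top and MT rat 5 and NS rat 10 at the bottom, a range of 17.5-fold over all rats, of 13.3-fold within the MT group and of 10.4-fold within the NS group. The means were 11.53 ± 1.57 and 11.40 ± 1.31 (SD, n = 5 each), with a log2 difference of 0.13 (SE 0.82, 95% interval -1.7 to 1.95) and limma's adjusted p = 0.949. Without NS rat 10 the difference was -0.36, and with slide as a fixed block it was -0.41.

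Cxcl11 read 11.23, 9.05, 12.13, 9.14 and 8.97 in MT rats 1 to 5 and 10.08, 10.11, 10.14, 9.41 and 6.72 in NS rats 6 to 10. MT rats 3 and 1 were the highest, as for Cxcl10, and NS rat 10 was the lowest, so that the rats spanned 42.5-fold. The means were 10.10 ± 1.48 and 9.29 ± 1.47 (SD, n = 5 each), a log2 difference of 0.81 (SE 0.84, 95% interval -1.05 to 2.68) with limma's adjusted p = 0.648. Without NS rat 10 the estimate was 0.17, and on slide 2 it was 0.08.

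The mRNAs nearest to Cxcl10, a comparison added after its values were seen, were Isg15, Slfn4 and Oas1k, at distances of 0.26, 0.29 and 0.31, and Cxcl11 stood in rank 44. Isg15, a ubiquitin-like protein induced by type I interferon, read 12.82 in MT rat 3 and 8.84 in MT rat 5, and 12.23 in NS rat 7 and 9.05 in NS rat 10. The mRNAs nearest to Cxcl11, also added after its values were seen, were Ubd at 0.42, a ubiquitin-like protein, Prf1, which encodes perforin, and Cd8a, the co-receptor of cytotoxic T cells, both at 0.66, and Cxcl10 stood in rank 4.

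Of 12 interferon-induced genes on a fixed list, with 13 RNAs, 0 passed the adjusted threshold with limma, 0 had an unadjusted p below 0.05 and 0 met the study's criteria, and the median log2 difference was -0.05. The centred mean of the list was 1.44 in MT rat 3 and 0.72 in MT rat 1, and it was -0.76, -0.58 and -1.08 in MT rats 2, 4 and 5. In the NS group it was 0.82 in NS rat 7, 0.42 in NS rat 8, 0.30 in NS rat 9, -0.46 in NS rat 6 and -0.81 in NS rat 10. MT rats 3 and 5, at the highest and the lowest value, were both on slide 1. The difference between the groups changed with the setting, with 8 of 13 RNAs lower in the MT group as reported, 6 without NS rats 8 and 9, 11 without NS rat 10 and 13 with slide as a fixed block.

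**Figure D3:**
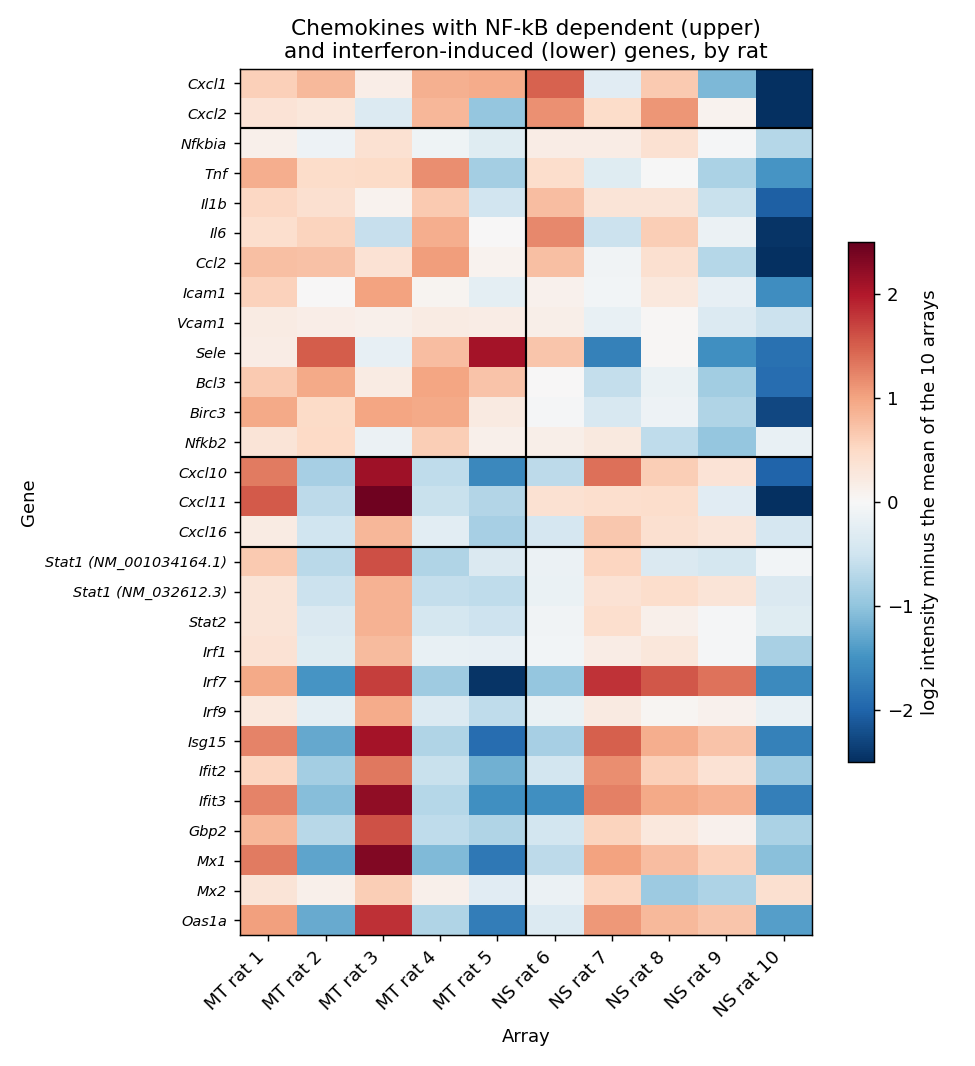
Log2 intensity minus the mean of the 10 arrays (colour, limited to 2.5 on either side) for Cxcl1 and Cxcl2 above NF-κB dependent genes and for Cxcl10, Cxcl11 and Cxcl16 above interferon-induced genes (y axis), by rat (x axis, MT rats left of the line). NS rat 10 is low in the upper blocks, and MT rats 1 and 3 are high and MT rats 2, 4 and 5 low in the lower blocks.

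Cxcl9 was close to the background. Its signal passed the scanner software's test against background on 5 of 5 MT arrays but on 0 of 5 from NS rats, and its values were 4.48, 3.22, 4.77, 4.46 and 4.36 in MT rats 1 to 5 and 3.18, 3.05, 4.73, 4.45 and 3.30 in NS rats 6 to 10. The 4 lowest rats, at 3.05 to 3.30, were MT rat 2 and NS rats 6, 7 and 10, which are the 4 arrays of slide 2, and the 6 rats of slides 1 and 3 lay at 4.36 to 4.77. The means were 4.26 ± 0.60 and 3.74 ± 0.79 (SD, n = 5 each), and NS rats 8 and 9 read within the range of the MT rats although their spots did not pass that test. Cxcl9 entered the comparison only through the MT arrays, so its difference is given as a value without a call.

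Within slide 2 the Cxcl9 difference was 0.05. It was 0.51 over all rats, 0.90 after scaling to the 75th percentile and 1.08 without NS rats 8 and 9, where the remaining NS rats were all on slide 2. The mRNAs nearest to it were Trpm1, Tlr12 and Avpr2, at 0.13, 0.19 and 0.19. Trpm1 split the arrays in the same way, with 4.56 to 4.64 on slide 2 and 5.59 to 5.88 on slides 1 and 3.

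**Figure D4:**
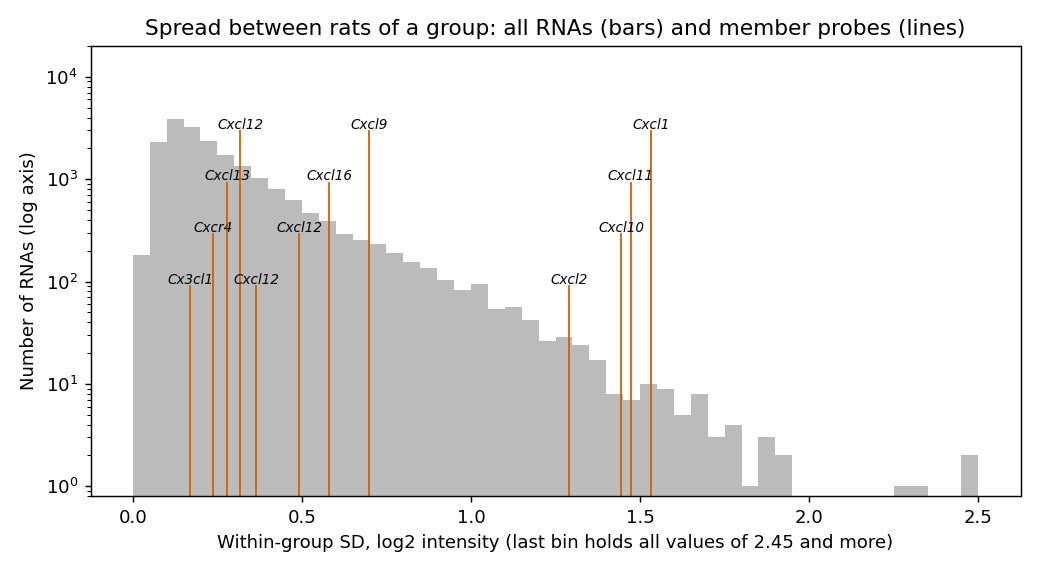
Within-group SD of log2 intensity (x axis) for 20221 RNAs (grey bars, number of RNAs on a log axis) with the 12 member probes as lines whose heights serve only to space the names. Cxcl1, Cxcl2, Cxcl10 and Cxcl11 lie between 1.29 and 1.53, where few RNAs are found, and the median RNA has 0.21.

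The pooled within-group SD was 1.53 for Cxcl1, 1.47 for Cxcl11, 1.44 for Cxcl10 and 1.29 for Cxcl2, against a median of 0.21 over 20221 RNAs. An SD of at least that size was found in 0.213%, 0.257%, 0.282% and 0.554% of RNAs, respectively. The groups were unlike for Cxcl1, with an SD of 0.31 in MT and 2.15 in NS rats, and for Cxcl2, with 0.69 and 1.69. They were closer for Cxcl10, with 1.57 and 1.31, and for Cxcl11, with 1.48 and 1.47. These 4 genes are the ones whose 250 bases before the start site hold the NF-κB consensus, but a link between consensus and spread was not tested. NS rat 10 was the lowest for all 4, whereas the highest was NS rat 6 for Cxcl1 and Cxcl2 and MT rat 3 for Cxcl10 and Cxcl11. No other member had an SD above 1, which 2.02% of RNAs had. Cxcl9 (0.70), Cxcl16 (0.58) and the 3 Cxcl12 probes (0.32 to 0.49) followed. Cxcl13 (0.28), Cxcr4 (0.24) and Cx3cl1 (0.17) varied least, and 35.7%, 43.7% and 61.6% of RNAs had an SD of at least that size.

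Cxcl16, a transmembrane chemokine that is shed and binds Cxcr6, read 12.04, 11.33, 12.66, 11.57 and 11.00 in MT rats 1 to 5 and 11.42, 12.51, 12.24, 12.14 and 11.41 in NS rats 6 to 10. MT rats 3 and 1 and NS rat 7 were among its higher rats and MT rat 5 the lowest, an order close to that of Cxcl10, for which NS rat 10 was the lowest. The means were 11.72 ± 0.65 and 11.94 ± 0.50 (SD, n = 5 each), with a log2 difference of -0.23 (SE 0.33, 95% interval -0.97 to 0.52) and limma's adjusted p = 0.760.

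Cxcl12, which is made by stromal cells and retains leukocytes and progenitors through Cxcr4, had 3 probes for different RefSeq transcripts. The probe for NM_001033882.1 read 10.99, 11.56, 10.36, 11.34 and 11.43 in MT rats 1 to 5 and 11.29, 10.82, 11.00, 10.95 and 11.13 in NS rats 6 to 10, with MT rats 2 and 3 as the highest and the lowest. The probe for NM_001033883.1 read 10.92, 11.32, 10.34, 11.33 and 11.35 in the MT group and 11.15, 10.84, 11.00, 10.94 and 10.94 in the NS group, where MT rat 3 was again lowest. The probe for NM_022177.3 read 8.35, 8.74, 8.10, 8.63 and 8.96 in the MT group and 9.16, 8.59, 9.03, 8.41 and 7.62 in the NS group. On this probe NS rat 10 was the lowest and NS rat 6 the highest, the order also seen for Cxcl1 and Cxcl2.

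The 3 Cxcl12 probes differed between the groups by 0.10 (SE 0.21), 0.08 (SE 0.19) and -0.01 (SE 0.28), respectively, and limma's adjusted p was 0.841, 0.849 and 0.993. Their 95% intervals were -0.38 to 0.57, -0.33 to 0.50 and -0.64 to 0.62 (log2).

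Cxcr4, the receptor of Cxcl12, read 9.72, 9.83, 10.03, 9.65 and 10.04 in MT rats 1 to 5 and 10.17, 9.59, 10.05, 9.83 and 9.52 in NS rats 6 to 10. The NS rats reached both higher and lower than the MT rats, with NS rat 6 the highest and NS rat 10 the lowest, as for Cxcl1 and Cxcl2. The difference was 0.02 (SE 0.14, 95% interval -0.29 to 0.34), with limma's adjusted p = 0.945.

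Cx3cl1 read 13.98, 14.02, 13.98, 14.03 and 14.15 in MT rats 1 to 5 and 13.81, 13.84, 14.19, 14.34 and 14.04 in NS rats 6 to 10. All MT rats lay inside the range of the NS rats, whose highest values were those of NS rats 8 and 9 on slide 3. The difference was -0.01 (SE 0.11, 95% interval -0.25 to 0.23) and limma's adjusted p was 0.965, so that the interval, from 0.839-fold to 1.17-fold, was the narrowest of the 12 probes.

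**Figure D5:**
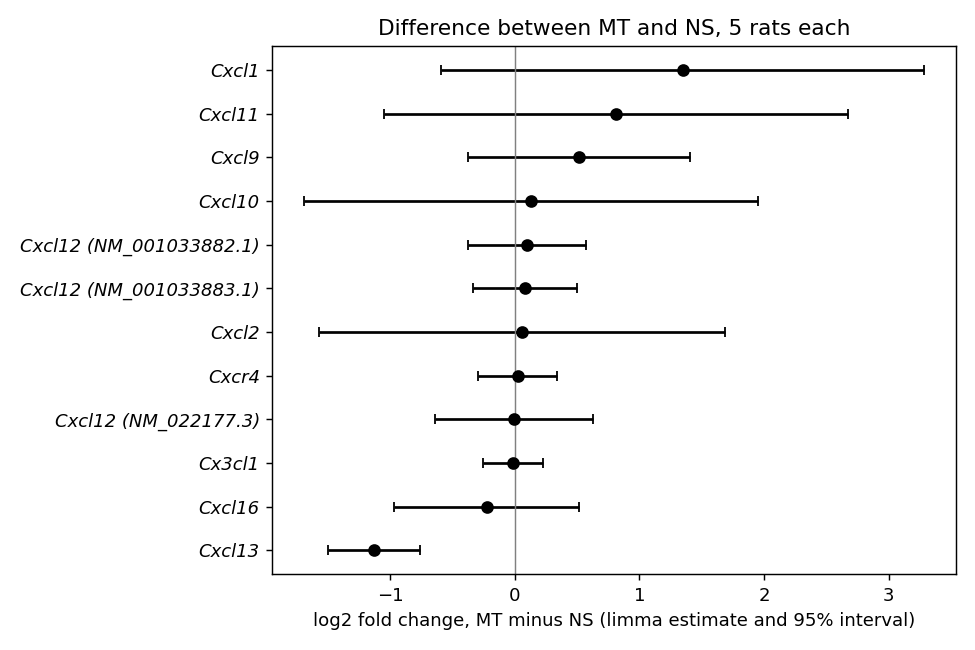
Log2 difference between MT and NS for the 12 probes (x axis, limma estimate with 95% interval, n = 5 rats per group), ordered by size (y axis, with the RefSeq transcript for Cxcl12). The interval of Cxcl13, -1.50 to -0.76, is the one that leaves out 0, and those of Cxcl1, Cxcl2, Cxcl10 and Cxcl11 are the widest.

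The receptors and the other genes of the pathway were read from fixed lists. Their counts stand beside shares over all RNAs of 16.4% with an unadjusted p below 0.05, 2.74% past the study's criteria and 0.197% past the adjusted threshold. Among 6 further chemokine receptors 0 passed the adjusted threshold or the study's criteria with limma and 1 had an unadjusted p below 0.05, with a median log2 difference of 0.05. This was Cx3cr1, the receptor of Cx3cl1 and itself a gene of microglia, at -0.50 (SE 0.20, adjusted p = 0.261). Cxcr2, the receptor of Cxcl1 and Cxcl2, differed by 0.64 (SE 0.50, adjusted p = 0.540) and Cxcr3, that of Cxcl9, Cxcl10 and Cxcl11, by -0.46 (SE 0.49, adjusted p = 0.663).

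Of 5 other CXC or related ligands, 0 passed either rule with limma and 2 had an unadjusted p below 0.05. Cxcl14, a chemokine of resting tissues, differed by -0.30 (SE 0.07, adjusted p = 0.121). Its groups did not overlap, as was so for 3.3% of RNAs with the MT group lower. Pf4, from platelets, differed by 0.50 (SE 0.18, adjusted p = 0.240).

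Enzymes and proteoglycans that cut, shed or hold chemokines had 8 genes tested. None passed the adjusted threshold with limma. An unadjusted p below 0.05 was found for 5, beside 16.4% of all RNAs. The study's criteria were met by 2, both higher in the MT group, beside 1.74% of all RNAs that were higher. These were the gelatinase Mmp9 at 1.5 (SE 0.52, adjusted p = 0.209) and the heparan sulfate proteoglycan Sdc1 at 0.76 (SE 0.19, adjusted p = 0.121). For both genes the MT and NS groups overlapped. With slide as a fixed block 1 of the 8 met the criteria, and without slide 3 it was 2. Mmp2, the other gelatinase, differed by -0.51 (SE 0.11, adjusted p = 0.0933) and Sdc4, a second syndecan, by 0.45 (SE 0.17, adjusted p = 0.245).

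Among 17 genes of chemokine receptor signalling (19 RNAs), 0 passed the adjusted threshold with limma, 2 had an unadjusted p below 0.05 and 1 met the study's criteria. This was Rgs1, which shuts off the G proteins of chemokine receptors, at -1.33 (SE 0.29, adjusted p = 0.0988). Its values were 8.78, 8.42, 9.29, 8.28 and 8.41 in MT rats 1 to 5 and 9.56, 10.80, 10.14, 10.08 and 9.25 in NS rats 6 to 10, and the groups overlapped only through MT rat 3 and NS rat 10. Jak2, a kinase that acts downstream of cytokine receptors, differed by 0.34 (adjusted p = 0.304). Over the 7 pathway lists together, 65 genes with 68 RNAs, 5 RNAs were higher and 1 was lower by the study's criteria. Of all RNAs, 1.74% were higher and 0.996% lower. The lists were chosen with earlier results of these data known, so setting the counts beside these shares is not a test.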

How the data were processed

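Lumbar spinal cord RNA of each rat (5 MT, 5 NS) was measured on a one-colour array for mRNAs and lncRNAs, 10 in all. Per the file headers and the submitters' processing notes, the authors extracted the spots with Agilent Feature Extraction 11.0.1.1 and deposited background-subtracted intensity values of 42136 spots per array, and the deposited log2 table holds their quantile-normalized values (r of 0.993 to 0.999 over 24484 probes with the values used here).

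Intensities were floored at 1, quantile-normalized as log2, averaged per probe and per RNA without spots marked as outliers, and kept where, on 5 arrays or more, a share of over 0.5 of the spots exceeded background by the scanner software's test. Member probes had 1 spot each, and 0 were marked or saturated. Groups came from the labels and were compared with limma 3.58.1 in R 4.3.3, with Benjamini-Hochberg adjustment over 20284 RNAs. Beside it stands the rule named the study's criteria, a linear fold of 1.5 with an unadjusted p below 0.05. Intervals cover 95%. Of 15323 mRNA probes, 14274 matched a RefSeq gene symbol. The code was tested on simulated data. The members and all lists were chosen with earlier results of these data known.

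All members were named, for every other list up to 4 genes with the smallest p and any past a threshold, and for the 3 members with the smallest p the 3 mRNAs nearest in pattern; other choices are marked as made after values were seen. Further marker lists, of erythrocytes, endothelial, mural and meningeal cells and motor neurons, gave 0 genes with an adjusted p below 0.05 and 1 past the study's criteria. The number of arrays limits the precision. Alternatives were scaling to the 75th percentile, normexp (offset 50, on median spot signals), the deposited table, other filters, outlier spots kept, the methods' Student's test, an intensity trend, slide as a block, single probes and leaving out each rat, and, chosen after seeing the data, leaving out slide 3.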

Additional observations from a re-analysis of the deposited data

Results flagged for a closer look

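Each group of 5 rats was examined for a lowest or highest rat that stood far from the rest, by its gap to the nearest rat as a share of the group's range (Dixon's ratio, threshold 0.71), and chance passes about 1 group in 20. NS rat 10 stood apart for Cxcl2, at 4.21 against 7.25 in the nearest NS rat (ratio 0.743), and for Cxcl11, at 6.72 against 9.41 (ratio 0.787). Both genes were lowest in this rat among all 10, as were Cxcl1, Cxcl10, Cxcr4 and the Cxcl12 probe for NM_022177.3. The share of spots well above background in NS rat 10 was 79.6%, within the range of the other arrays. MT rat 2 stood apart for Cxcl9, at 3.22 against 4.36 (ratio 0.737), and it was the MT rat on slide 2. MT rat 5 stood apart for Cx3cl1, at 14.15 against 14.03 (ratio 0.722), although this value lay within the range of the NS rats.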

How the results depend on the processing

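No paired analysis was possible because the MT and NS groups share no rat number. The number of RNAs with an adjusted p below 0.05 was 40 as reported, 147 with normexp, 66 in the deposited table, 12 without a filter, 120 with a filter on all 10 arrays, 117 with an intensity trend, 0 with slide as a fixed block (824 with an unadjusted p below 0.05), 0 with slide as a random block (1414), 2 without slide 3 and 0 to 84 leaving out each rat. By the study's criteria it was 555 as reported, 199 with normexp, 912 without a filter, 349 with the filter on all arrays, 323 and 322 with slide as a fixed and a random block and 426 to 867 leaving out each rat. Scaling to the 75th percentile gave 708 higher and 112 lower, against 353 and 202 as reported. The fits with slide as a block used the 20221 RNAs with a value on every array. As reported, 3322 of 20284 RNAs had an unadjusted p below 0.05.

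The number of members called was 1 as reported and 0 without a filter (Cxcl13 adjusted p = 0.0560), with the methods' Student's test (0.0534), with slide as either block and without slide 3, and 0 to 1 leaving out each rat; the call was lost without any of MT rats 1, 3, 4 and 5 and NS rats 6, 8 and 9, where limma's adjusted p for Cxcl13 reached 0.163. Members past the study's criteria numbered 2 with the 75th percentile and without slide 3, in both cases through Cxcl9, which passed the filter only through the MT arrays, and 1 to 2 leaving out each rat. RNAs of the 7 pathway lists past the criteria numbered 3 with slide as a fixed block and 6 to 9 leaving out each rat. The causes were not tested.

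Members near 0 changed sign. Cxcl2 was -0.11 with normexp. Cxcl10 was -0.41 and -0.19 with slide as a fixed and a random block. The Cxcl12 probe for NM_022177.3 was 0.032 with the 75th percentile, 0.0035 in the deposited table, 0.28 and 0.12 with the 2 slide blocks and 0.10 without slide 3. Cx3cl1 was 0.0064 in the deposited table, 0.13 and 0.032 with the slide blocks and 0.14 without slide 3. Leaving out each rat gave -0.67 to 0.35 for Cxcl2, -0.38 to 0.55 for Cxcl10, -0.0075 to 0.29 for Cxcl12 NM_001033882.1, -0.24 to 0.14 for NM_022177.3, -0.071 to 0.062 for Cx3cl1 and -0.054 to 0.11 for Cxcr4. Cxcl9 could not be tested with the filter on all 10 arrays. Across the 12 probes, 217 of 263 tested settings kept the direction and the side of the adjusted threshold, 34 turned the direction and 12, all for Cxcl13, lost the call.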
